A study of Mus musculus with 3 samples.

Results

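The chemokine system genes Ccr2, Ccr1, Cxcr4, Cxcr2, Ccl3, Ccl4, Ccl6, Ccl9, Cxcl2 and Ccl2 were followed in MigA9 cells, a mouse line transformed by the homeobox transcription factor Hoxa9, that were exposed to DB818. Members were the genes whose name on the array, or an older synonym of it (Il8rb for Cxcr2), was on this list of 10, and 13 of the 41174 probes (10 of 27389 genes) met that rule. Treated cells received 2.5 µM of DB818, a compound that binds the minor groove of DNA and has been studied for keeping HOXA9 off its sites, for 6, 12 or 24 h, and untreated cells were the comparison at each time. All cells carried the transforming Hoxa9 and grew with GM-CSF-conditioned medium added. Each time had 1 two-colour Agilent array, with treated RNA in Cy5 and untreated RNA in Cy3, no dye swap and no second array. A single time therefore has no replicate check, and precision is limited by how few arrays there are. The labels do not say whether the untreated RNA was 1 preparation or came from a separate culture for each array. P-values therefore measure only the spread between these arrays, which also differ in exposure time.

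Chemokines are small secreted proteins that direct the movement of leukocytes along gradients, and their receptors couple to G proteins of the inhibitory class. In the bone marrow Cxcr4 holds progenitors and immature neutrophils in place, Cxcr2 draws mature neutrophils out, and Ccr2 lets monocytes leave. Myeloid cells also make chemokines themselves, among them the Ccr1 ligands Ccl3, Ccl6 and Ccl9.

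Values are log2 ratios of treated to untreated signal unless another quantity is named. The median ratio of the 10957 genes measured on all arrays was 0.03 at 6, 12 and 24 h. Repeated spots of 1 probe scattered by 0.043, 0.034 and 0.051 (SD of the log2 ratio at 6, 12 and 24 h), which covers spotting and scanning only. All 11 of 11 fixed myeloid markers were measured, against 0 of 5 T-cell, 0 of 4 B-cell, 0 of 4 erythroid and 0 of 4 fibroblast markers. The 1 of 3 endothelial markers measured was Pecam1, which myeloid cells also express. Each array was its own slide, so slide and time cannot be told apart. In bulk RNA, fewer cells of a type and less RNA per cell cannot be told apart either.

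Of the 10 members, 7 were measured, meaning that both channels stood well above background without saturation, on all 3 arrays: Ccr2, Cxcr4, Ccl3, Ccl4, Ccl6, Ccl9 and Ccl2. Of all 27389 genes 10957 were measured in this way. Ccr1, the receptor for Ccl3, Ccl6 and Ccl9, was not well above background in either channel at any time, with untreated mean signals of 73.2, 76.1 and 84.9 at 6, 12 and 24 h over local backgrounds of 42. Cxcl2, a neutrophil attractant that acts through Cxcr2, was likewise not well above background, with untreated signals of 74.4, 80.5 and 74.8. Both probes of Cxcr2 were not well above background except for 1 probe in the treated channel at 24 h (79.2 against 78.8 untreated). There the treated level was 1.05-fold the untreated estimate after loess, an estimate itself not well above background. Agilent's ratio for that spot was -0.05 with a scanner error of 0.72, so no direction is given. No change of these 3 genes can be read at this signal. The median untreated signal of all probes, detected or not, was 78.2, 79.2 and 79.3 on the 3 arrays. The untreated signals of these genes were near it, with Ccr1 at 24 h (84.9) above it.

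Among the receptors, Ccr2 fell and Cxcr4 rose by a smaller amount. Ccr2, the receptor for Ccl2, had ratios of -0.13, -0.27 and -0.41 at 6, 12 and 24 h, lower in treated cells on 3 of 3 arrays and 1.33-fold lower at 24 h. Its mean was -0.27 ± 0.05 (SE, n = 3 arrays, limma adjusted p = 0.013). The direction was also down from Agilent's deposited ratio (-0.56), but it turned with median centring on all probes (0.43). Across 11 alternatives the limma adjusted p ran from 4.3e-05 to 0.068. Its lowest value came from median centring on all probes, where the mean had turned. The lowest for a fall was 0.00022, with median centring on measured probes (mean -0.47). The call was lost without the 12 h array (mean -0.27, limma adjusted p = 0.068). The 2 Ccr2 probes differed in size. The probe for the RefSeq transcript, whose untreated signal was 665, 828 and 1003, gave -0.12, -0.41 and -0.55. The probe for a cDNA clone, whose untreated signal was only 89.0, 89.9 and 94.5, gave -0.14, -0.13 and -0.27. From Agilent's processed signals the first gave -0.15, -0.46 and -0.61 with scanner errors of 0.20, 0.21 and 0.21, and the second -0.71, -0.79 and -0.66 with errors of 0.40, 0.36 and 0.40. Both probes were thus lower in treated cells at each time under both calculations, and only the first became steadily lower.

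A stretch upstream of an annotated Ccr2 start site (RefSeq, GRCm38.p6, chr9:124102104-124102133, plus strand) is shown because Ccr2 had the lowest mean of the members and because DB818 was studied for blocking a Hox protein at such sites. Capitals mark the Hox core letters TTTAT.
Ccr2: tctgcaggaaacTTTATttcctacttctgc

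Cxcr4, the receptor for Cxcl12, had ratios of 0.10, 0.10 and 0.18 at 6, 12 and 24 h, higher on 3 of 3 arrays. It rose by a mean of 0.13 ± 0.03 (SE, n = 3 arrays, limma adjusted p = 0.029), which is 1.09-fold. Its 2 probes gave 0.06, 0.04 and 0.15 for one and 0.13, 0.16 and 0.21 for the other. The mean stayed above 0 in all 11 alternatives (0.10 to 1.00), but only 6 kept it past the threshold. The limma adjusted p ran from 5.6e-08, with median centring on all probes, to 0.15. Those that lost the call were Agilent's deposited ratio (0.12, adjusted p = 0.15), a normexp offset of 0 (0.13, adjusted p = 0.11), median centring on measured probes (0.10) and leaving out the 12 h or the 24 h array (0.14 and 0.10).

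**Figure D1:**
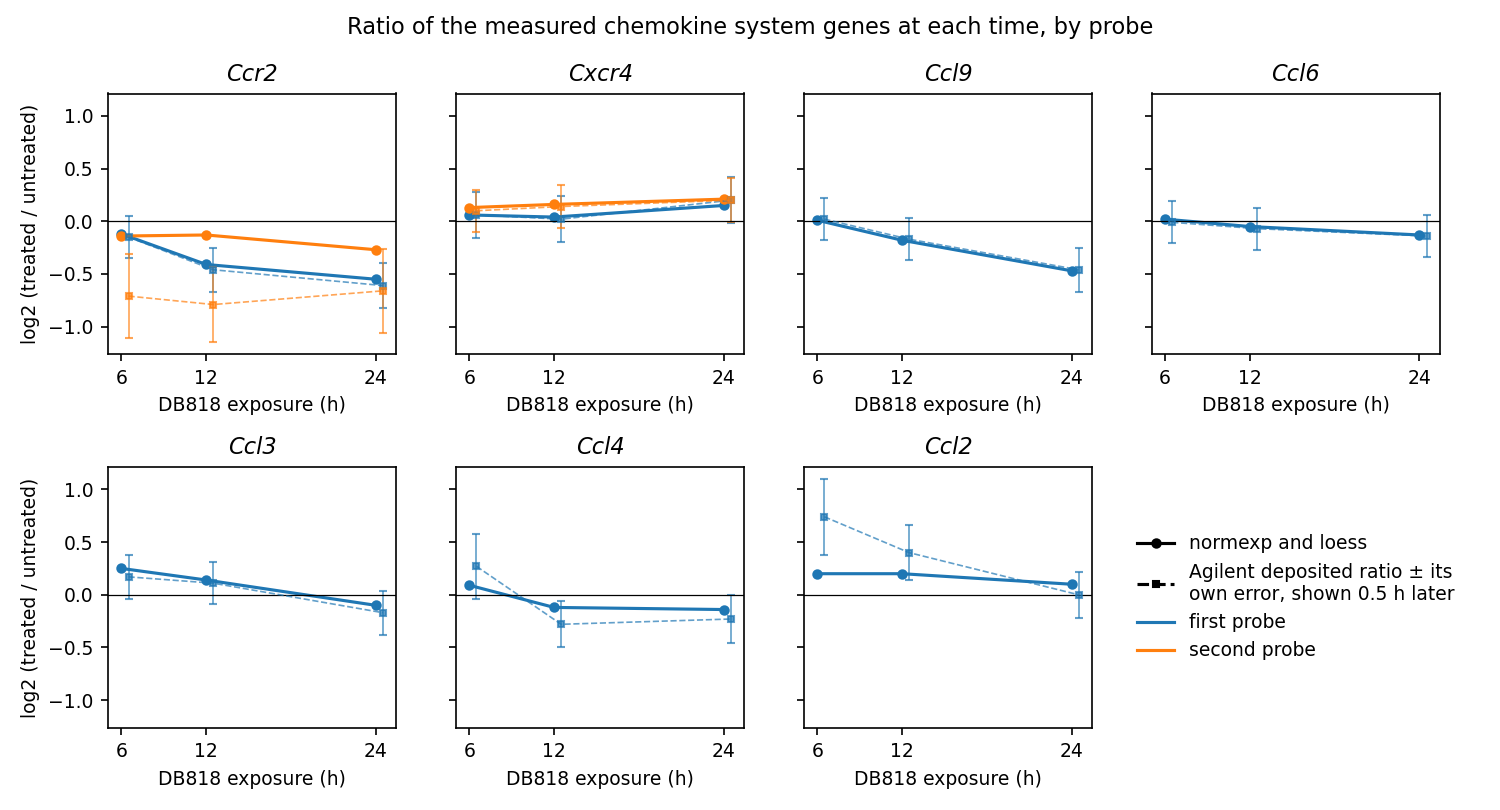
Log2 ratio of treated to untreated signal (vertical axis) against hours of DB818 (horizontal axis) for the 7 measured members, with circles for the ratio after normexp and loess and squares for Agilent's deposited ratio with the scanner's own error. Ccr2 and Ccl9 reach -0.41 (mean of 2 probes) and -0.47 at 24 h, while the other 5 genes stay between -0.14 and 0.25 after normexp and loess.

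Among the ligands Ccl9 had a ratio near 0 at 6 h and the lowest at 24 h, although not with either median centring (0.01 and 0.93). Ccl9, also called MIP-1 gamma, had ratios of 0.01, -0.18 and -0.47 at 6, 12 and 24 h, the last 1.39-fold lower in treated cells. From Agilent's deposited ratio the values were 0.02, -0.17 and -0.46. Its order with Ccr2 at 24 h was not stable, since Ccr2 was lower from Agilent's ratio (-0.63) and with a normexp offset of 0 (-0.62 against -0.45). The mean, -0.22 ± 0.08 (SE, n = 3 arrays), did not pass (limma adjusted p = 0.088, and 6.4e-07 to 0.26 over 11 alternatives). It passed without the 6 h array (-0.33, limma adjusted p = 0.010). It was above 0 with median centring on all probes (1.14, where the adjusted p was lowest) and on measured probes (0.24). Its neighbour on chromosome 11, Ccl6, a related ligand of Ccr1, had smaller ratios of 0.02, -0.05 and -0.13, with a mean of -0.05 ± 0.04 (limma adjusted p = 0.31, and 2.9e-08 to 0.80 over 11 alternatives). It turned and passed with median centring on measured probes (0.26, limma adjusted p = 0.00082) and on all probes (1.16, where the adjusted p was lowest).

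The next genes along the same cluster are Ccl3 and Ccl4, inflammatory ligands known as MIP-1 alpha and beta. Ccl3 had ratios of 0.25, 0.14 and -0.10, with a mean of 0.10 ± 0.06 (SE, n = 3 arrays, limma adjusted p = 0.28). Without the 24 h array its mean was 0.19 (limma adjusted p = 0.024, with 3.4e-08 to 0.80 over 11 alternatives). Ccl4 had ratios of 0.09, -0.12 and -0.14, with a mean of -0.05 ± 0.05 (limma adjusted p = 0.42), and without the 6 h array a mean of -0.13 (limma adjusted p = 0.030, with 3.7e-06 to 0.87 over 11 alternatives). The ratios of both genes were above 0 at 6 h and below 0 at 24 h after loess, but not with median centring. On measured probes Ccl3 was at 0.11 at 24 h and Ccl4 at -0.47 at 6 h. On all probes Ccl3 was at 1.04 and Ccl4 at 0.52 at 24 h. Centring on all probes also gave the lowest adjusted p of both, at means of 1.09 (Ccl3) and 0.49 (Ccl4).

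Ccl2, the ligand of Ccr2 and a monocyte attractant, rose: its ratios were 0.20, 0.20 and 0.10, higher on 3 of 3 arrays, with a mean of 0.17 ± 0.03 (SE, n = 3 arrays, limma adjusted p = 0.014), but the mean was -0.26 with median centring on measured probes. The signal was dim, at 85.1, 95.2 and 119 in the untreated and 112, 137 and 186 in the treated channel. Agilent's deposited ratio gave 0.74, 0.40 and 0.00 with scanner errors of 0.36, 0.26 and 0.22, and a mean of 0.38 that did not pass (limma adjusted p = 0.14; 3.5e-06 to 0.14 over 11 alternatives). The call was also lost without the 12 h array, at a mean of 0.15. The lowest adjusted p came from median centring on all probes (mean 0.64).

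The 250 bases before the start sites of the 3 neighbours Ccl9, Ccl6 and Ccl3 (RefSeq, GRCm38.p6, minus strand) are set side by side because their ratios at 24 h ran from -0.47 to -0.10. They lie at chr11:83578637-83578886, chr11:83593088-83593337 and chr11:83649379-83649628. Capitals mark the Hox core letters TTTAT and TTTAC on either strand.
Ccl9: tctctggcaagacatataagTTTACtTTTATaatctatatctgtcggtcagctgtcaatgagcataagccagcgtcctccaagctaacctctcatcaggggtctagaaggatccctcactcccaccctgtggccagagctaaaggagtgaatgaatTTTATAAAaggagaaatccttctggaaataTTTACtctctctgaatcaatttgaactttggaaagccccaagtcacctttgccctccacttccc
Ccl6: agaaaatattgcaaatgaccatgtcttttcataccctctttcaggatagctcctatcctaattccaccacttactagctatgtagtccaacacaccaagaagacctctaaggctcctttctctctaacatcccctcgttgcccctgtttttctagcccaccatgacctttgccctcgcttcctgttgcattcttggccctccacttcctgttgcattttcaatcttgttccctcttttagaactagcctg
Ccl3: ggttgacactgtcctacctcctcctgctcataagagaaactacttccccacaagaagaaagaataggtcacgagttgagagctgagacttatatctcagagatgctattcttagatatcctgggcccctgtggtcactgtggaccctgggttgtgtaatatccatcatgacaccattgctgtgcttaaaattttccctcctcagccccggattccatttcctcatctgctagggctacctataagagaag
The Ccl9 window held 3 matches to TTTAT, all of them overlapping matches to the TATA letters TATAAA, and 2 to TTTAC, while those of Ccl6 and Ccl3 held 0 of either. Among the other windows of that length, Ccr2 held 2 of each, Cxcr4, which rose, held 2 matches to TTTAT (both overlapping TATAAA), Cxcl2 held 1 to TTTAT, Ccr1 held 1 to TTTAC and Cxcr2 held 0. Matches were thus found for members with lower, higher and unmeasured ratios. Of all 32851 promoter windows, 37.3% held TTTAT and 28.3% held TTTAC, so such matches are common. The longer Pbx-Hox letters TGATTTAT, present in 0.837% of windows, were in none of the 8 members' windows. An NF-kB motif (17.6% of windows, both strands) was found for Ccr1 and Cxcl2, and the C/EBP letters TTGCNNAA (9.56% of windows) for none of the 8. A match is a run of letters and not a measured site. Ccl4 and Ccl2 had no entry in the table used.

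In the test of the mean over the 3 times, 2 of the 7 measured members rose (Ccl2 and Cxcr4), 1 fell (Ccr2) and 4 did not pass (Ccl3, Ccl4, Ccl6 and Ccl9). Of all 10957 genes, 20% rose and 7.86% fell, 27.9% in all, so a count of 3 among 7 is not far from the background. The median mean ratio was -0.05 for the 7 members and 0.03 for all genes. The 3 times stand in for replicates here, and without a dye swap dye and treatment cannot be told apart in the mean. A ratio that changes over time also widens the SE, which was 0.08 for Ccl9 and 0.03 for Ccl2. The members were chosen with earlier results of these data known, so the counts at single times are descriptive. Single times were read against a fixed size of 0.32 on the log2 scale in either direction. By that measure 0 of 7 members stood apart at 6 or 12 h, where 1.87 and 1.42% of all genes were that much higher and 0.684 and 0.675% that much lower. At 24 h 2 of 7, Ccr2 and Ccl9, were that much lower, against 1.41% of all genes, and 0 of 7 were higher, against 2.79%. With median centring on measured probes the 2 lower members were Ccr2 (-0.59) and Ccl4 (-0.41), against 26.4% of all genes, and on all probes all 7 were higher, against 90.6%.

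**Figure D2:**
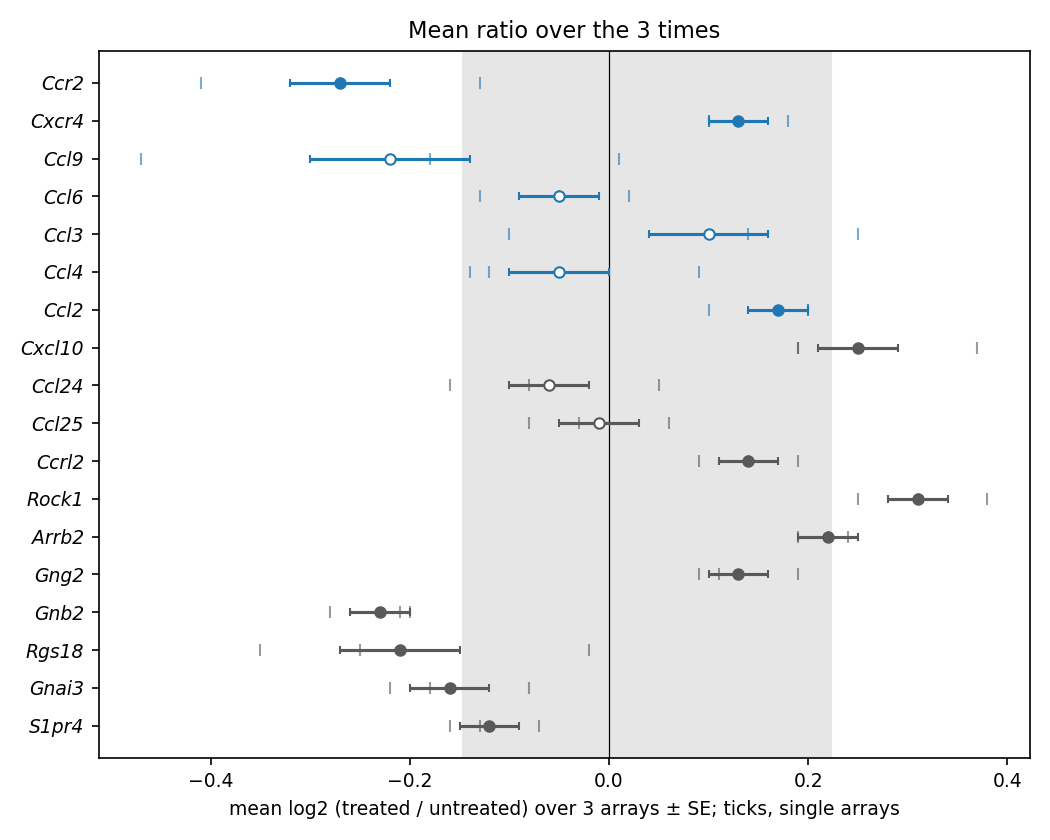
Mean log2 ratio over the 3 arrays with its standard error (horizontal axis) for the 7 measured members (blue) and other genes of the chemokine system (grey), with small ticks for single arrays. Filled circles passed the limma test, and the band holds the central 90% of the means of all 10957 genes (from -0.147 to 0.223), outside which Ccr2 (-0.27) and Ccl9 (-0.22) lie among the members.

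The difference of the 24 h ratio from the 6 h ratio was -0.48 for Ccl9, -0.35 for Ccl3, -0.28 for Ccr2, -0.23 for Ccl4, -0.15 for Ccl6, -0.10 for Ccl2 and 0.08 for Cxcr4. A dye effect of equal size on both arrays cancels in this difference. Ccl9 and Ccl3 passed 0.32 downward, as 1.05% of all genes did, and 0 of 7 members passed it upward, against 1.59%. Which members passed downward differed between the settings. From Agilent's ratio there were 4, against 6.15% of all genes, with Ccl2 (-0.74) and Ccl4 (-0.51) beyond Ccl9. With a normexp offset of 0 there were 5, against 4.68%, and with either median centring only Ccl9. The change of Ccl9 was almost the same under every normalisation tried, from -0.48 to -0.45. That of Ccr2 ran from -0.43 to -0.20. That of Ccl3 was -0.47 to -0.35 in settings with loess or Agilent's own dye correction, but only -0.03 and -0.05 with median centring on all and on measured probes. The changes of Ccl4 (0.08 and 0.07) and Ccl2 (0.26 and 0.24) turned in those 2 settings. No test was made of 1 array against another.

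The largest differences in the members lay between arrays and were present without the drug. The untreated log2 level of Ccl3 was 7.48, 8.86 and 9.28 (6, 12 and 24 h arrays), a 3.49-fold span and the highest 24 h to 6 h difference of 10950 genes (rank 1). In treated cells the level was 7.73, 9.0 and 9.18, a 2.75-fold span (rank 2). Agilent's processed signals are not compressed by an added offset but were not normalised between arrays here. From them the untreated signal was 4.58-fold and the treated signal 3.60-fold higher at 24 h than at 6 h. Set beside these, the largest difference between treated and untreated Ccl3 on any array was 0.25.

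Ccl4, Ccl6 and Ccl2 went the same way. Untreated Ccl4 stood at 6.48, 7.16 and 7.15, 1.59-fold higher on the 24 h array than on the 6 h array (2.96-fold from Agilent's signals), and treated Ccl4 at 6.57, 7.04 and 7.01. Untreated Ccl6 stood at 10.14, 10.61 and 10.84, 1.62-fold higher, and treated Ccl6 at 10.16, 10.56 and 10.71. Untreated Ccl2 stood at 6.35, 6.59 and 7.04, 1.61-fold higher (4.15-fold from Agilent's signals), and treated Ccl2 at 6.56, 6.80 and 7.14. For these 4 ligands both channels were lowest on the 6 h array, and the 24 h to 6 h difference in either channel was larger than the treated to untreated difference on any array. In the untreated channel 4 of 7 members were at least 1.5-fold higher on the 24 h array than on the 6 h array, against 0.393% of 10950 genes, and 0 of 7 were that much lower, against 0.183%. In the treated channel 1 of 7 was higher (Ccl3), against 0.868%, and 0 of 7 were lower, against 0.21%. Agilent's signals have no added offset and were not normalised between arrays here. In them the treated signal was 3.60-fold (Ccl3), 2.48-fold (Ccl2), 2.08-fold (Ccl4) and 1.52-fold (Ccl6) higher at 24 h than at 6 h. The brighter Ccr2 probe was 1.54-fold higher untreated but 1.12-fold higher treated. No share of all genes was computed for these signals, so their folds cannot be set against the shares above. The members were chosen with earlier results of these data known, so the counts above are descriptive only.

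For Ccl9 and Ccr2 the 2 channels parted. Untreated Ccl9 was at 12.22, 12.55 and 12.63 on the 6, 12 and 24 h arrays, while treated Ccl9 was at 12.23, 12.37 and 12.16. The difference between 24 and 6 h was 0.41 in the untreated and -0.07 in the treated channel. Untreated Ccr2 was at 8.18, 8.29 and 8.52 and treated Ccr2 at 8.05, 8.02 and 8.11, so that the difference was 0.34 untreated and 0.06 treated. These Ccr2 levels are means of a bright and a dim probe. From the 6 h to the 24 h array the bright probe went from 9.99 to 10.56 untreated and from 9.87 to 10.01 treated. The dim probe went from 6.37 to 6.48 untreated and from 6.22 to 6.21 treated. The lower ratios of both genes at 24 h thus came with a higher untreated level on that array and a treated level close to that of the 6 h array. Cxcr4 varied little, at 8.06, 7.96 and 8.02 untreated and 8.16, 8.06 and 8.20 treated. The median range of the untreated level over the 3 arrays was 0.12 for all genes, against 0.11 for Cxcr4, 0.34 for Ccr2, 0.41 for Ccl9 and 1.80 for Ccl3. Time in culture, separate cultures and the arrays themselves cannot be told apart here.

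**Figure D3:**
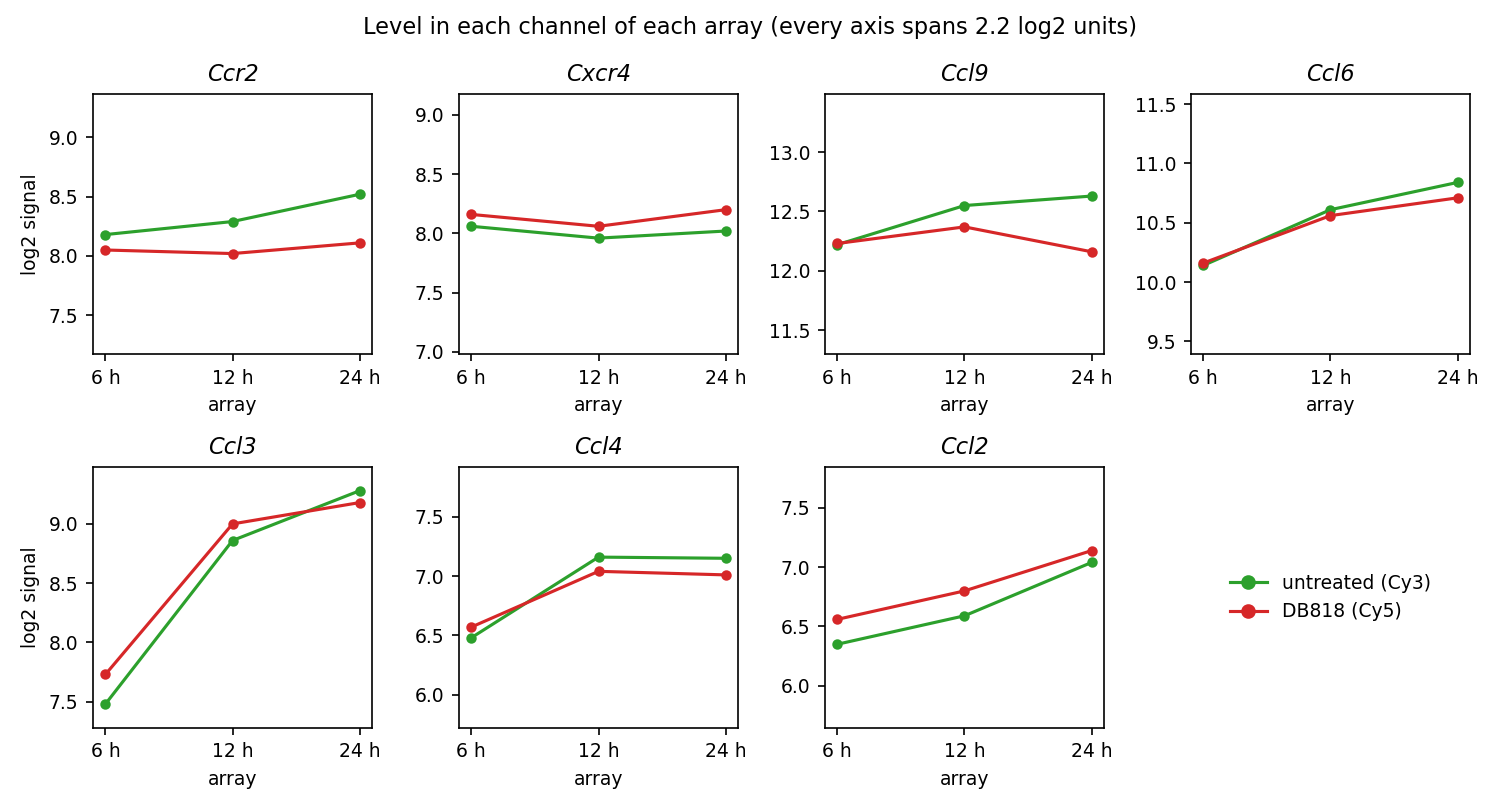
Log2 signal (vertical axis, with the same span in every panel) in the untreated and treated channel of the 6, 12 and 24 h arrays (horizontal axis) for the 7 measured members. Ccl3 goes from 7.48 to 9.28 untreated and from 7.73 to 9.18 treated, and the channels of Ccl9 and Ccr2 separate toward the 24 h array.

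**Figure D4:**
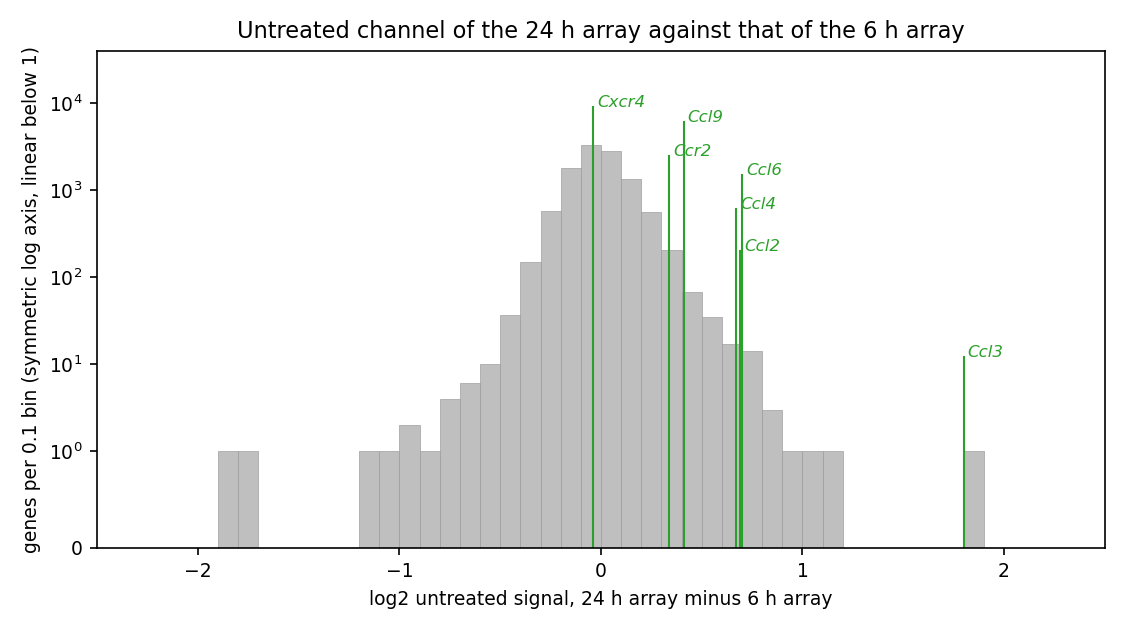
Number of genes (vertical axis, symmetric log scale) by the difference in untreated log2 signal between the 24 h and 6 h arrays (horizontal axis), with the 7 measured members marked by lines whose heights carry no value. Ccl3 at 1.80 is the highest of 10950 genes, Ccl6, Ccl2 and Ccl4 lie at 0.70, 0.69 and 0.67, and Cxcr4 lies at -0.04.

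Few other chemokines or receptors gave a measurable signal, where 10957 of all 27389 genes were measured on all arrays. Of 30 other ligands on the array 3 were measured on all arrays, of which 1 rose, 0 fell and 2 did not pass. Of all measured genes 20% rose and 7.86% fell. Cxcl10, an interferon-induced ligand of Cxcr3, rose by a mean of 0.25 ± 0.04 (limma adjusted p = 0.0099) from single ratios of 0.19, 0.19 and 0.37. Its mean depended on the processing, at 0.62 with a normexp offset of 0 but -0.30 with median centring on measured probes. Ccl24 (-0.06 ± 0.04) and Ccl25 (-0.01 ± 0.04) did not pass. Of 20 other receptors only Ccrl2, an atypical receptor that binds chemerin, was measured. It rose (0.14, 0.09 and 0.19, mean 0.14 ± 0.03, limma adjusted p = 0.024), again with the opposite sign under that centring (-0.30). With an offset of 0 its mean was 0.28. The Ccrl2 call was also lost from Agilent's ratio (limma adjusted p = 0.15) and without the 12 h (0.099) or the 24 h array (0.082), while that of Cxcl10 held in 10 of 11 alternatives.

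Most of the signalling machinery downstream of the receptors was measured. Of 32 genes measured on all arrays, 5 rose, 4 fell and 23 did not pass, where 20% of all genes rose and 7.86% fell, and their median mean ratio was 0.04. Rock1, a kinase downstream of RhoA (0.31 ± 0.03), Arrb2, the beta-arrestin that uncouples activated receptors (0.22 ± 0.03), and Gng2, a G protein gamma subunit (0.13 ± 0.03), had the highest means among those that rose. Of 11 alternatives 11 kept the call of Rock1 (at 0.17 with its brightest probe), 10 that of Arrb2 and 6 that of Gng2. The adjusted p of Gng2 reached 0.25 in limma without the 12 h array. Aquantile normalisation between arrays, counted among the 11, leaves ratios unchanged and could not lose a call. Gnb2, a G protein beta subunit (-0.23 ± 0.03, but 0.16 with median centring on measured probes and 1.06 on all probes), and Gnai3, an inhibitory alpha subunit (-0.16 ± 0.04, but 0.24 and 1.14), fell. So did Rgs18, a regulator of G protein signalling in blood cells, with ratios of -0.02, -0.25 and -0.35 (mean -0.21 ± 0.06, limma adjusted p = 0.044, but 0.69 with median centring on all probes). The call and direction held in 9 of 11 alternatives for Gnb2, 5 for Gnai3 and 4 for Rgs18. Of 4 measured receptors for other chemoattractants 0 rose, 1 fell and 3 did not pass. The one that fell was the sphingosine-phosphate receptor S1pr4 (-0.12 ± 0.03, but 0.06 with median centring on all probes), a call that 7 of 11 alternatives kept.

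The genes with 3 ratios nearest to those of Ccr2 were Ninj1 (Euclidean distance 0.019 on the log2 scale over 3 arrays), Epha7 (0.033) and Ifngr1 (0.035). Those nearest to Ccl2, the member with the highest mean, were Tra2a (0.005), Bnip2 (0.013) and Nfix (0.021).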

How the data were processed

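Total RNA was hybridised to 3 two-colour arrays. Per the labels Cy5 held the treated and Cy3 the untreated sample. Spot signals came to the authors from Agilent Feature Extraction 9.1.3.1, per the submitters' processing notes. The deposited files hold intensity per spot and channel, local background, and a log10 ratio with its error. The series' own deposited values equal that log10 ratio (largest difference 0, column medians 0).

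Here the mean signal was corrected with normexp (offset 50) and local median background, then by loess within each array (limma 3.58.1 in R 4.3.3, with version 1.17.8 of data.table). Log2 ratios below were computed from these deposited intensity values. Control spots and 37, 36 and 52 spots marked as outliers were left out. The median Cy3 signal was 78.2 to 79.3 over a background of 41 to 42, and the offset draws ratios of dim genes toward 0. A gene was the mean of its unsaturated probes that stood well above background in Cy3 and Cy5. Names came from RefSeq by accession (22864 probes), symbol (6732) or synonym (3498), and 8080 kept the name in the file. Channel levels were compared after Aquantile normalisation. They carry no scale between probes, so the members were not ranked against one another by level.

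The mean ratio was tested against 0 (limma, 2 residual degrees of freedom, prior 4.81, two-sided, Benjamini-Hochberg over 10957 genes at 0.05). Single times were described by size. In simulated data with independent noise and the same SD for every gene, 200 of 200 planted genes were recovered among 204 calls. That setting held no time course, dye bias or difference in spread between genes. It checks the code and does not give the power or the false calls in these data. The members and lists were chosen with earlier results of these data known. All 10 members were named, with up to 3 highest and 3 lowest called genes of each other list and the 3 nearest genes to the highest and lowest member. The ligands and receptors measured but not called were added. Alternatives covered background correction, offset, normalisation, the filter, the choice of probe and leaving out each array. Tables and figures used Python 3.11.15, pandas 2.3.3, numpy 2.4.6 and matplotlib 3.10.9.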

Additional observations from a re-analysis of the deposited data

Results flagged for a closer look

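The ratio of Ccl4 was 0.09 at 6 h but -0.12 at 12 h and -0.14 at 24 h, opposite signs that each exceeded 2 SD of repeated spots. The difference was -0.21 between 6 and 12 h and -0.23 between 6 and 24 h. Spot scatter leaves out the spread between samples, and the scanner's own errors for this dim probe (0.31, 0.22 and 0.23 at 6, 12 and 24 h) were larger than each of these ratios. Neither difference was tested, since each time had 1 array. With median centring on measured probes the ratio was -0.47, -0.36 and -0.41, with no change of sign.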

How the results depend on the processing

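Every ratio set treated against untreated RNA of the same array. No further pairing between times was used, since each time had 1 array. Centring on measured probes was added after seeing the data, since centring on all probes, most of them dim, put nearly every measured gene above 0. Of all genes 2196 rose and 861 fell. Agilent's deposited ratio gave 593 rises, an offset of 0 gave 1141, median centring on all probes 10795 and 1 fall, and on measured probes 4153 and 4477. Leaving out 1 array gave 404 to 2289 rises and 143 to 956 falls, both lowest without the 12 h array. Of the members 0 rose from Agilent's ratio, 1 with an offset of 0 and 7 (with 0 falls) with centring on all probes, and 3 fell with centring on measured probes. Leaving out 1 array gave 0 to 2 rises and 0 to 3 falls, with 0 of both without the 12 h array and 3 falls without the 6 h array. Of the 40 other chemokine system genes 7 rose and 5 fell, 3 and 2 from Agilent's ratio, 38 and 0 with centring on all probes, and 17 and 17 on measured probes. The mean ratios, and the 24 h ratios of Ccr2 and Ccl9, turned under no setting other than centring. On all probes the means were 0.43 (Ccr2), 0.49 (Ccl4), 1.16 (Ccl6), 1.14 (Ccl9), 1.14 (Gnai3), 1.06 (Gnb2), 0.69 (Rgs18) and 0.06 (S1pr4), and the 24 h ratios of Ccr2 and Ccl9 were 0.33 and 0.93. On measured probes the means were 0.26 (Ccl6), 0.24 (Ccl9), -0.26 (Ccl2), -0.30 (Ccrl2), -0.30 (Cxcl10), 0.24 (Gnai3) and 0.16 (Gnb2), and the 24 h ratio of Ccl9 was 0.01. That centring leaves a trend with brightness, from a median of -0.74 among the dimmest 10% to 0.43 among the brightest 10% at 24 h. Signal over background limits Ccl2, Ccl4 and the second Ccr2 probe. The cause of the other differences was not tested.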
